A study of Mus musculus with 9 samples.

Results

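The alpha- and beta-crystallin genes counted in embryonic lenses were Cryaa, Cryab, Cryba1, Cryba2, Cryba4, Crybb1, Crybb2 and Crybb3. They were taken by symbol, and all 8 were found among the 55416 genes of the count files. Lens RNA was sequenced at E16.5, with 1 library from the pair of lenses of each embryo, to ask which transcripts depend on the transcription factor ATF4. The 4 Atf4 null embryos were homozygous for Atf4 tm1Tow, a germline allele in which a neomycin cassette stands in for the coding sequence, so ATF4 was missing from the whole embryo and not from the lens alone. The 5 wildtype embryos were littermates from the same matings of heterozygotes. Embryos of both sexes were used, all on a mixed C57Bl/6 and 129 background, and whether any of them carried the 129 strain's deletion in Bfsp2, a beaded filament gene of fiber cells, was left unchecked by genotyping.

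Crystallins are the soluble proteins that fill lens fiber cells and give the lens its refractive power. Alpha-crystallins belong to the small heat shock proteins and act as chaperones that hold unfolding proteins in solution. Beta-crystallins are structural proteins that assemble into oligomers and are divided by charge into an acidic (Cryba) and a basic (Crybb) group, and they belong to the superfamily that also holds the gamma-crystallins. MAF, PAX6, SOX and PROX1 are known to control crystallin promoters during fiber differentiation.

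Library depth was 8409779 to 8906996 gene counts in wildtype and 7440807 to 8696699 in Atf4 null lenses. Atf4 itself lay between 119 and 156 CPM (counts scaled to library size) in wildtype and between 0.582 and 10.6 CPM in Atf4 null lenses. Wildtype replicate 5 stood apart from the other libraries. The summed level of 8 mesenchyme markers was 14431 CPM in it, while wildtype replicates 1 to 4 had 241 to 265 CPM and Atf4 null lenses 219 to 558 CPM. That of 10 skeletal muscle markers was 4582 CPM, against 4.11 to 20.6 CPM in the other wildtype and 17.3 to 46.9 CPM in Atf4 null lenses. Of 12 lens fiber markers, Lim2 had no counts in any library, and the reason was not tested. Wildtype replicates 1 to 4 had a sum of 22274 to 25493 CPM over the list, wildtype replicate 5 had 13414 CPM and the Atf4 null lenses 9419 to 21345 CPM, so fiber transcripts were present in each library.

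The 8 genes lie on 5 chromosomes of GRCm39. Cryaa (ENSMUSG00000024041) spans bases 31896781 to 31900707 of chromosome 17 and Cryab (ENSMUSG00000032060) bases 50651859 to 50668567 of chromosome 9, both on the plus strand. The canonical transcript of each has 3 exons. Cryba1 (ENSMUSG00000000724) spans bases 77609441 to 77616120 of chromosome 11, minus strand, with 6 exons. Cryba2 (ENSMUSG00000006546) spans bases 74929093 to 74932302 of chromosome 1, minus strand, with 5 exons. The other 4 genes form 2 neighbouring pairs on chromosome 5. Cryba4 (ENSMUSG00000066975, from 112394359 to 112402226 on the minus strand) and Crybb1 (ENSMUSG00000029343, from 112400811 to 112417965 on the plus strand) are read away from each other from canonical starts 3296 bases apart. Their gene models overlap by 1416 bases, of which 100 are exonic in both. Crybb2 (ENSMUSG00000042240, from 113206124 to 113217983) and Crybb3 (ENSMUSG00000029352, from 113223705 to 113229450) both lie on the minus strand, with 5721 bases between them. No run of 50 bases in the canonical transcript of any of the 8 genes was found in a transcript of another crystallin gene, while 8.3% of such runs of Cryaa occurred in the overlapping Gm50222, 8.23% of those of Cryab in the overlapping Gm67659 and Gm67675, and 3.12% of those of Crybb1 in transcripts of 26 other genes.

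The 250 bases before the canonical start of each gene were read from GRCm39 and searched on both strands for 6 motifs. The letters TGCTGA, an arm of the palindromic MAF recognition element, were found before 5 of the 8 genes (Cryba1, Cryba2, Cryba4, Crybb1 and Crybb3), and before 14.8% of 21770 protein-coding genes. TGATGNAA, the C/EBP-ATF response element that ATF4 dimers bind, was found before none of the 8 and before 3.39% of all genes. TATAAA was found before Cryba1 and Crybb1, and before 11.9% of all genes. TGACGTCA, the cAMP response element, was found before none of the 8 and before 1.69% of all genes. The AP-1 site TGANTCA was found before Cryba2 and before 6.17% of all genes, and the heat shock element GAANNTTC before Cryab and before 6.33%. No match overlapped another, and a match of letters is a description and not a binding site. The upstream bases are shown of the most abundant alpha-crystallin and of the 3 beta-crystallins whose window lies outside their own gene model. They run 5′ to 3′ along the gene, with every match in capitals.
Cryaa, chr17:31896531-31896780, plus strand: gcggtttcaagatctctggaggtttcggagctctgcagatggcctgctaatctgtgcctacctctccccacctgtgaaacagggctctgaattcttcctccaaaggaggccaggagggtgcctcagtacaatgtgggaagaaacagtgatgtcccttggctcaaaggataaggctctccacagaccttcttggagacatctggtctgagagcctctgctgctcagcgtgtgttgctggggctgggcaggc
Cryba1, chr11:77616121-77616370, minus strand: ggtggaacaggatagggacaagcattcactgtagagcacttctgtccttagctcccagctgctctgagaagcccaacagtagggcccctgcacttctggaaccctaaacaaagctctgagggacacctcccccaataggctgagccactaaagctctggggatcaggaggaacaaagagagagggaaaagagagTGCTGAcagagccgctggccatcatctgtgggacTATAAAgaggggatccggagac
Cryba2, chr1:74932303-74932552, minus strand: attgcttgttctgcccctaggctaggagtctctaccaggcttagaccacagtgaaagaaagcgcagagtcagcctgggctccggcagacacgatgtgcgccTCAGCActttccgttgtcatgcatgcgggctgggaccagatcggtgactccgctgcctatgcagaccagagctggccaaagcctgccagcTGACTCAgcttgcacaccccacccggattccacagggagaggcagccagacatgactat
Crybb3, chr5:113229451-113229700, minus strand: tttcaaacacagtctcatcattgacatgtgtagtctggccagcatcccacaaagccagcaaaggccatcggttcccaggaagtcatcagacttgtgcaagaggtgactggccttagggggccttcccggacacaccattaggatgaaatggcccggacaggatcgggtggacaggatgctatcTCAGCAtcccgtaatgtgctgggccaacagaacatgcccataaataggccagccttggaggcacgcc
The letters TGCTGA stood at 3 places before Cryba4 and at 1 place before its neighbour Crybb1. This is the pair of abundant beta-crystallins whose ratio differed most between the genotypes. A link between these letters and that ratio was not tested, and the share of all genes with 3 such places was not counted. The 30 bases around each place are shown with TGCTGA in capitals.
Cryba4, 182 to 177 bases before the start, chr5:112400549-112400578, minus strand: catattccctagTGCTGAccctgggcaagc
Cryba4, 135 to 130 bases before the start, chr5:112400502-112400531, minus strand: taaaggcagagcTGCTGAcatgtccactct
Cryba4, 77 to 72 bases before the start, chr5:112400444-112400473, minus strand: ctatctctggctTGCTGAgtctgtgtttgt
Crybb1, 78 to 73 bases before the start, chr5:112403590-112403619, plus strand: cccatccaggttTGCTGAcccagctgcctc

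The 8 genes together took between 10.7% and 11.1% of all gene counts in wildtype replicates 1 to 4, and 6.84% in wildtype replicate 5. In Atf4 null replicates 1 to 4 the share was 5.62%, 7.91%, 7.66% and 10.6%. The null libraries thus ran from below wildtype replicate 5 to just below the other wildtype libraries, and the groups overlapped.

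Levels of different genes were compared per length, as CPM per kilobase of summed exons (FPKM). In wildtype lenses Cryaa was highest, at 23310 ± 4920 FPKM (SD, n = 5). Crybb2, a beta-crystallin that accumulates mainly after birth, was lowest, at 23.3 ± 5.91 FPKM (SD, n = 5). Between them stood, in falling order of mean FPKM, Crybb3 at 8173, Cryba1 at 8020, Crybb1 at 3791, Cryba2 at 3397, Cryba4 at 1259 and Cryab at 382 FPKM. The order held in each of the 9 libraries except between Crybb3 and Cryba1, where Crybb3 was higher in 3 of 5 wildtype and in 0 of 4 Atf4 null libraries. These levels depend on the length used. With the canonical transcript in place of summed exons, wildtype means ran from 64.2 FPKM for Crybb2 to 38590 FPKM for Cryaa, with 23028 FPKM for Crybb3, 16315 for Cryba1, 11748 for Crybb1, 5629 for Cryba2, 5168 for Cryba4 and 994 for Cryab. Crybb3 was then above Cryba1 in all 9 libraries, no other neighbours changed places, and Cryba2 stood 1.09-fold above Cryba4 in wildtype replicates 1 to 4 in place of 2.69-fold.

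In the edgeR quasi-likelihood fit over 14903 genes, with Benjamini-Hochberg adjustment, 3 of the 8 genes passed the threshold of 0.05. These were Cryba2, Cryba4 and Crybb2, all lower in Atf4 null lenses, where 3.67% of all genes tested were called lower. The fitted change was below 0 for each of the 8 genes, with a median log2 fold change of -0.63, against 0.00072 over all genes tested. Without wildtype replicate 5, Cryab, Cryba1 and Crybb3 passed as well, which made 6 of 8, where 4.96% of all genes were called lower. With all 9 libraries the CPM of the groups overlapped for each of the 8 genes, whereas every null value lay below every wildtype value for 5.58% of all genes. Without wildtype replicate 5 the null values lay below all wildtype values for 5 of the 8 (Cryab, Cryba1, Cryba2, Cryba4 and Crybb3) and for 8.64% of all genes. In RNA from whole lenses, fewer fiber cells and less of an mRNA per fiber cell cannot be told apart.

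**Figure D1:**
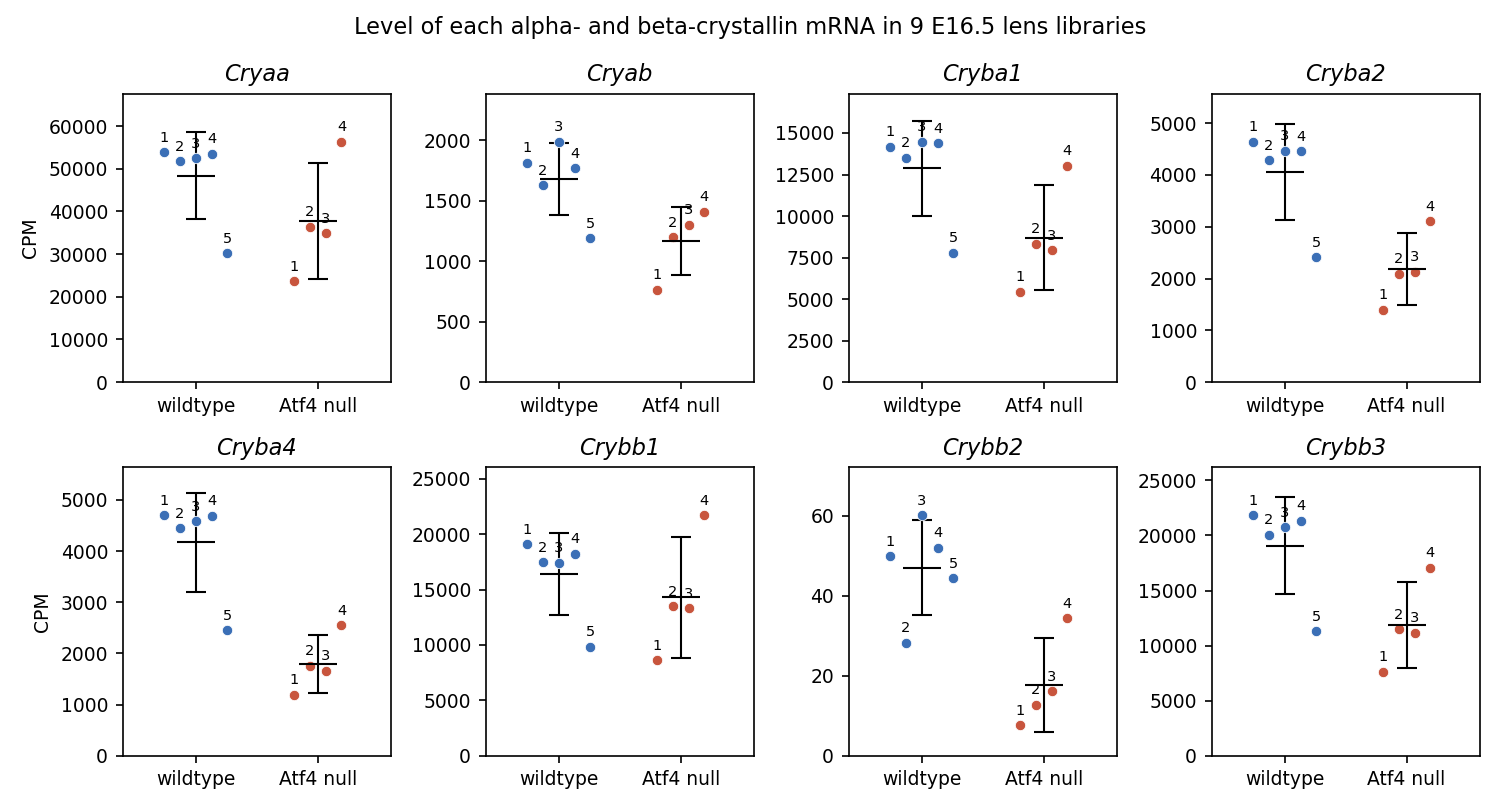
Level of each of the 8 mRNAs in CPM (y axes start at 0) in 5 wildtype and 4 Atf4 null libraries. Points are libraries with their replicate number, long bars are means and whiskers SD. In each panel Atf4 null replicate 1 is the lowest and replicate 4 the highest of the nulls, and wildtype replicate 5 is the lowest wildtype library in every panel but that of Crybb2.

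Cryaa, the lens-preferred alpha-crystallin, was the most abundant of the 8. Its level was 53926, 51826, 52497, 53529 and 30179 CPM in wildtype replicates 1 to 5. In Atf4 null replicates 1 to 4 it was 23690, 36420, 34893 and 56378 CPM. The highest value of all was thus an Atf4 null library and so was the lowest. The log2 fold change was -0.35 ± 0.22 (SE, adjusted p = 0.432), and no alternative brought it past the threshold (adjusted p 0.0752 to 1). The antisense lncRNA Gm50222 spans the gene and shares 273 exonic bases with it. Its counts were 1.1% to 1.22% of those of Cryaa in null and 1.18% to 1.42% in wildtype libraries, and as the strand setting of the counting is not given, reads from the shared bases cannot be told apart.

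Cryab is the alpha-crystallin that heart and skeletal muscle also make. Its level was 1815, 1632, 1991, 1773 and 1192 CPM in wildtype replicates 1 to 5. The values in null replicates 1 to 4 were 764, 1199, 1304 and 1410 CPM. The null values lay below those of wildtype replicates 1 to 4, while wildtype replicate 5 fell among them. The log2 fold change was -0.52 ± 0.18 (SE, adjusted p = 0.125), and -0.62 with an adjusted p of 0.0226 without wildtype replicate 5, the library with 4582 CPM of muscle markers. With all 9 libraries it passed in DESeq2 (adjusted p = 0.0368). The part of muscle transcripts in the level of Cryab in that library was not tested. Hspb2, which overlaps Cryab on the other strand, had 0.248% to 1.11% of the counts of Cryab.

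Cryba1 encodes the acidic beta-crystallins A1 and A3, which are made from a single mRNA. Its level was 14174, 13519, 14480, 14398 and 7793 CPM in wildtype replicates 1 to 5. Null replicates 1 to 4 had 5443, 8329, 7947 and 13018 CPM. Null replicate 4 came close to the main body of wildtype libraries, and wildtype replicate 5 lay below 3 of the 4 nulls. The log2 fold change was -0.57 ± 0.23 (SE, adjusted p = 0.189). Cryba1 passed without Atf4 null replicate 4 (log2 fold change -0.83, adjusted p = 0.0317) and without wildtype replicate 5 (-0.70, adjusted p = 0.0292), but not without any other library.

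Cryba2, another acidic beta-crystallin, was at 4644, 4286, 4466, 4454 and 2412 CPM in wildtype replicates 1 to 5. Null replicates 1 to 4 had 1401, 2092, 2135 and 3112 CPM. Here null replicate 4 was clearly below wildtype replicates 1 to 4, and only wildtype replicate 5 fell within the null range. Cryba2 was lower in Atf4 null lenses, with a log2 fold change of -0.89 ± 0.23 (SE, adjusted p = 0.0341) and a mean at 53.9% of wildtype. The call changed with the libraries used, while the fitted change stayed between -1.11 and -0.72 as each library was left out. The call held without Atf4 null replicate 4 (adjusted p = 0.00908) or wildtype replicate 5 (adjusted p = 0.0015). It was lost without any 1 of the other 7 libraries, at adjusted p between 0.0621 and 0.109.

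Cryba4 had the lowest adjusted p of the 8. It is an acidic beta-crystallin that in wildtype replicates 1 to 5 was at 4703, 4448, 4582, 4694 and 2452 CPM. The values in null replicates 1 to 4 were 1194, 1760, 1663 and 2550 CPM. The highest null library exceeded wildtype replicate 5 by a narrow margin and stood at 55.4% of the mean of wildtype replicates 1 to 4. Cryba4 was lower in Atf4 null lenses, with a log2 fold change of -1.22 ± 0.23 (SE, adjusted p = 0.00612) and a mean at 42.9% of wildtype. It kept the call without each of the 9 libraries (adjusted p 0.000106 to 0.0313). Against a minimum absolute log2 fold change of 0.5 (glmTreat) it missed the threshold, at an adjusted p of 0.0507.

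Crybb1, the neighbour of Cryba4 and a basic beta-crystallin, behaved differently. Its level was 19080, 17462, 17428, 18245 and 9845 CPM in wildtype replicates 1 to 5. Null replicates 1 to 4 had 8617, 13502, 13308 and 21715 CPM. Null replicate 4 was above all wildtype libraries, at 120% of the mean of wildtype replicates 1 to 4. The log2 fold change was -0.20 ± 0.24 (SE, adjusted p = 0.721), and it ran from -0.48 to -0.01 as each library was left out, with adjusted p between 0.225 and 0.985. Crybb1 was thus not shown to change.

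Crybb2 had the largest fitted change and the fewest counts. It had 389, 229, 487, 411 and 414 counts in wildtype replicates 1 to 5, or 49.9, 28.3, 60.2, 52 and 44.3 CPM. Null replicates 1 to 4 had 76, 106, 147 and 236 counts, or 7.58, 12.7, 16.1 and 34.4 CPM. Null replicate 4 was above wildtype replicate 2, and the other nulls were below all wildtype libraries. Unlike the other 7 genes, Crybb2 was not lowest among the wildtype libraries in replicate 5, where it stood at 93.1% of the mean of the other 4. Crybb2 was lower in Atf4 null lenses, with a log2 fold change of -1.42 ± 0.36 (SE, adjusted p = 0.0352) and a mean at 37.7% of wildtype. The call held without Atf4 null replicate 4 (adjusted p = 0.00216), wildtype replicate 2 (adjusted p = 0.0348) or wildtype replicate 5 (adjusted p = 0.0203), and was lost without any 1 of the other 6 libraries, at adjusted p between 0.0619 and 0.125.

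Crybb3, the most abundant basic beta-crystallin per length, was at 21851, 20075, 20774, 21347 and 11289 CPM in wildtype replicates 1 to 5. The values in null replicates 1 to 4 were 7628, 11500, 11167 and 17072 CPM. All nulls were below wildtype replicates 1 to 4, and wildtype replicate 5 lay in the middle of the null range. The log2 fold change was -0.69 ± 0.23 (SE, adjusted p = 0.1). Crybb3 passed without Atf4 null replicate 4 (-0.92, adjusted p = 0.0213) and without wildtype replicate 5 (-0.82, adjusted p = 0.00722), and with all 9 libraries it passed with DESeq2 (adjusted p = 0.0155) and with no filter on low counts (adjusted p = 0.0205).

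**Figure D2:**
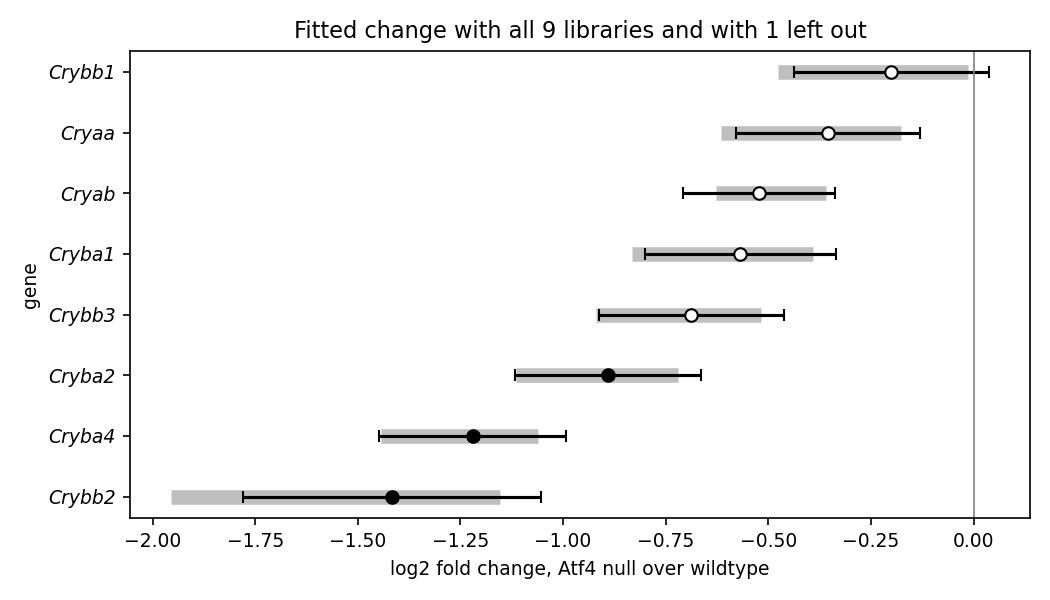
Fitted log2 fold change of each gene, Atf4 null over wildtype (x axis), with all 9 libraries (points, whiskers are SE) and its range when each library was left out in turn (grey bars). Filled points have an adjusted p below 0.05 in the edgeR quasi-likelihood test. The points run from -0.20 for Crybb1 to -1.42 for Crybb2, and no grey bar crosses 0.

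Most of the 8 genes shifted together from library to library. Across the 9 libraries the log2 CPM of any 2 of the 8 genes had a Pearson correlation between 0.621 and 0.993, with a median of 0.919. Without wildtype replicate 5 it lay between 0.797 and 0.995. These are descriptions over libraries that share one scaling per library, and no test was made on them. They pool both genotypes, so the difference between genotypes is part of them. Relative to the mean of wildtype replicates 1 to 4, 6 of the genes stood at 53.2% to 57% in wildtype replicate 5, while Cryab was at 66.2% and Crybb2 at 93.1%. In the nulls the genes spread apart within each library. Atf4 null replicate 1 ran from 15.9% for Crybb2 to 47.7% for Crybb1, and null replicate 4 from 55.4% for Cryba4 to 120% for Crybb1. The 6 genes other than Cryab and Crybb2, set apart after their values were seen, kept one order in each of the 4 null libraries, from Crybb1 through Cryaa, Cryba1, Crybb3 and Cryba2 down to Cryba4. Cryab did not keep its place. It lay between Cryaa and Cryba1 in null replicates 1 and 2, above Cryaa in replicate 3 (72.4% against 65.9%) and below Crybb3 in replicate 4 (78.2% against 81.3%).

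**Figure D3:**
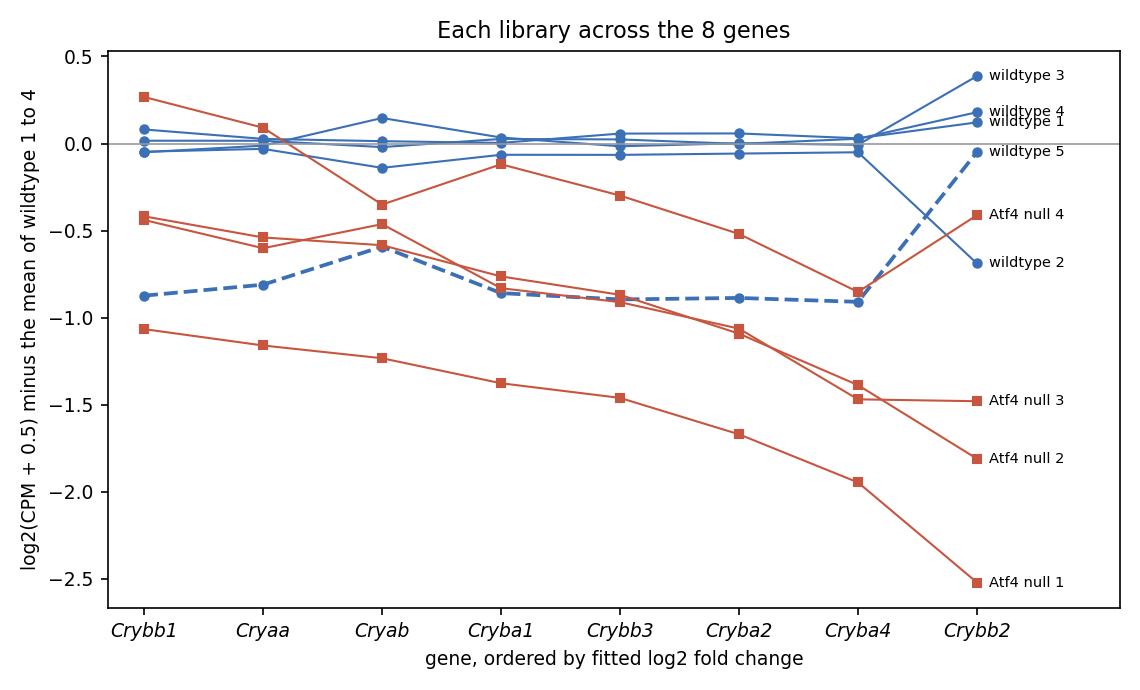
Each line is 1 library, and the y axis is its log2(CPM + 0.5) minus the mean of wildtype replicates 1 to 4 for each of the 8 genes on the x axis. Apart from Cryab, wildtype replicate 5 (dashed) runs almost level from Crybb1 to Cryba4, whereas the 4 Atf4 null libraries slope down over the same genes at different heights.

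The ratio of 2 genes in the same library does not depend on how libraries are scaled, except through the pseudocount of 0.5 CPM. It was compared for all 28 pairs with an exact two-sided permutation test over all ways to choose 4 of the 9 libraries. The smallest p this design allows is 0.0079. After adjustment over the 28 pairs, 21 passed 0.05, and 16 pairs reached the smallest p. Those 16 all have an adjusted p of 0.0139 in this test, whatever the size of their difference. The 28 ratios are made from 8 genes in the same libraries, so the pairs are not independent results. The 7 pairs that did not pass all held Cryab or Crybb2. Of the 13 pairs with either gene, 6 passed. Of the other 15, a set that leaves out every failing pair, all passed, and their ratios did not overlap between the groups. A ratio shows that 2 genes changed unequally, not which of them changed.

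The neighbours Cryba4 and Crybb1 differed most among these 6 genes. Cryba4 stood at 24.6%, 25.5%, 26.3%, 25.7% and 24.9% of the CPM of Crybb1 in wildtype replicates 1 to 5. The nulls, replicates 1 to 4, had 13.9%, 13%, 12.5% and 11.7%. Wildtype replicate 5 lay among the other wildtype libraries here, and both groups were narrow. The mean log2 ratio was lower by 0.99 in the nulls, which is 1.99-fold (exact permutation test, adjusted p = 0.0139), and lower in 4 of 4 null than in every wildtype library.

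Cryba4 also fell relative to its fellow acidic beta-crystallin Cryba2. Its CPM was between 101% and 105% of that of Cryba2 in the 5 wildtype and between 77.9% and 85.2% in the 4 null libraries. The difference in mean log2 ratio was -0.32 (exact permutation test, adjusted p = 0.0139). Cryba4 was lower relative to each of the other 6 genes apart from Crybb2, with which its ratio did not pass (-0.31 for Crybb2 over Cryba4, adjusted p = 0.403).

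Cryba2 was compared with Cryaa in the same way. It stood at 8.61%, 8.27%, 8.51%, 8.32% and 7.99% of the CPM of Cryaa in wildtype replicates 1 to 5. The nulls, replicates 1 to 4, had 5.92%, 5.74%, 6.12% and 5.52%. The groups were separate, and the mean log2 ratio was lower by 0.52 in the nulls (exact permutation test, adjusted p = 0.0139). Smaller shifts were resolved as well, since ratios varied little between lenses. Cryba1 was at 26.5 ± 0.707% of Cryaa in wildtype (SD, n = 5) and at 22.9 ± 0.136% in Atf4 null lenses (SD, n = 4), a difference of -0.21 in log2 ratio (exact permutation test, adjusted p = 0.0139).

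At the upper end, Cryaa fell relative to Crybb1 alone among the 8. Its CPM was between 283% and 307% of that of Crybb1 in wildtype and between 260% and 275% in null libraries, with a difference of -0.15 in log2 ratio (exact permutation test, adjusted p = 0.0139). Crybb3 fell relative to its basic fellow Crybb1, from 116 ± 2.02% (SD, n = 5) to 84.1 ± 4.11% (SD, n = 4) of its CPM (difference -0.47 in log2 ratio, adjusted p = 0.0139 in the exact permutation test). Crybb1 was the gene relative to which 6 of the other 7 fell, with Cryab as the exception.

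The alpha-crystallins did not differ from each other beyond their spread. Cryab was at 3.37%, 3.15%, 3.79%, 3.31% and 3.95% of the CPM of Cryaa in wildtype replicates 1 to 5. In Atf4 null replicates 1 to 4 it was at 3.23%, 3.29%, 3.74% and 2.5%, and the difference of -0.15 in mean log2 ratio had an adjusted p of 0.308 (exact permutation test). Crybb2 varied more than the others, with 0.141% to 0.393% of the CPM of its neighbour Crybb3 in wildtype and 0.0993% to 0.201% in null libraries. That difference of -0.84 in log2 ratio did not pass either (exact permutation test, adjusted p = 0.0606). Crybb2 did fall relative to Crybb1, from between 0.162% and 0.45% of its CPM in wildtype to between 0.0879% and 0.158% in null libraries (difference -1.31 in log2 ratio, adjusted p = 0.0261 in the exact permutation test).

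**Figure D4:**
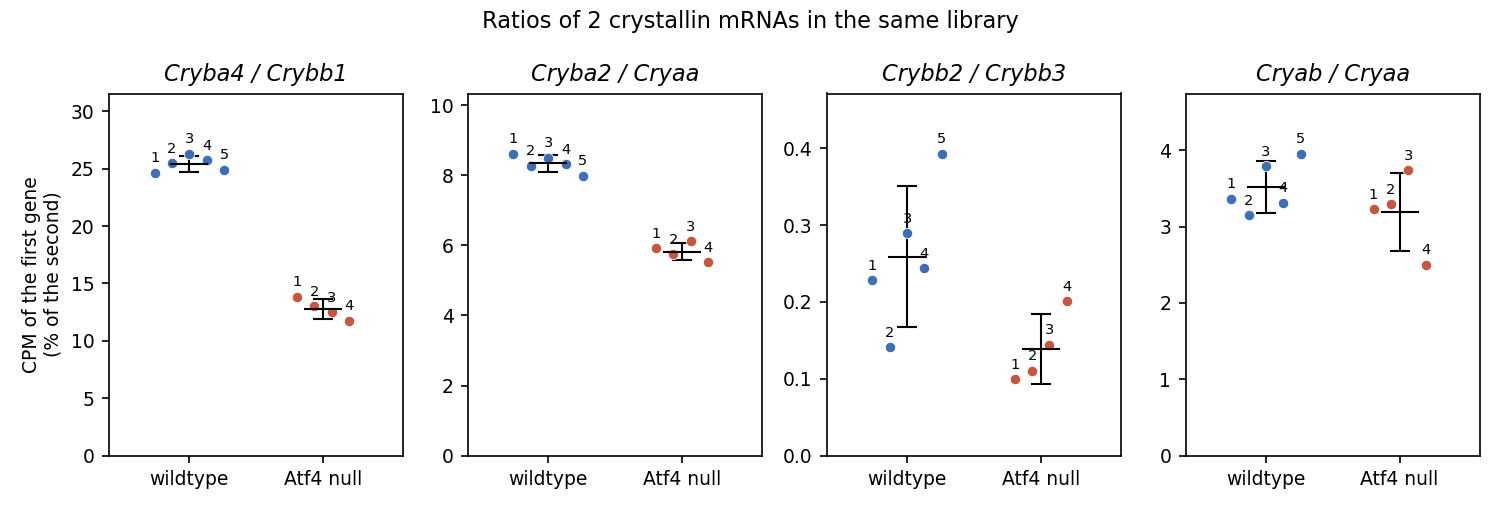
CPM of the first gene as a percent of that of the second in the same library (y axes start at 0), for 5 wildtype and 4 Atf4 null libraries. Points carry replicate numbers, long bars are means and whiskers SD. Cryba4 over Crybb1 and Cryba2 over Cryaa separate the groups with wildtype replicate 5 among the wildtype, whereas Crybb2 over Crybb3 and Cryab over Cryaa overlap.

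The gamma-crystallins, monomeric relatives of the beta-crystallins, were mostly lower as well. Of 8 listed genes, 6 passed the threshold, all lower, where 3.67% of all genes tested were called lower. The median log2 fold change of the 8 was -1.08, against -0.63 for the alpha- and beta-crystallins. Crygn had the largest change, at -2.65 ± 0.22 (SE, adjusted p = 2.2e-05), followed by Crygb at -1.41 ± 0.25, Crygf at -1.31 ± 0.26 and Crygs at -1.17 ± 0.25. Cryge, the most abundant, was at -0.47 ± 0.24 (SE, adjusted p = 0.306). The count was 3 without Atf4 null replicate 3, where Crygs lost its call (adjusted p = 0.0573), 5 without null replicate 1, and 4 without null replicate 2 or any 1 of wildtype replicates 1 to 4. It was 2 with glmTreat, where Crygb and Crygn passed. Reads that fit several of the near-identical gamma-crystallin genes were not counted, so values of single genes in that cluster are uncertain. Of the summed counts of alpha-, beta- and gamma-crystallins, the alpha- and beta-crystallins made up 79.6% to 80.3% in wildtype and 84.3% to 85.3% in Atf4 null libraries, without overlap.

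Among 8 tested genes that carry a crystallin name or, like Lgsn (lengsin), are enzyme relatives found in the lens, 1 passed. Of all genes tested, 5.9% were called in either direction. Lgsn had no counts in the 4 null libraries and 20, 0, 61, 64 and 57 counts in wildtype replicates 1 to 5. It was at least 13.7-fold lower, with 3 counts per null library as the floor (adjusted p = 0.0188). The call was lost without Atf4 null replicate 2 (adjusted p = 0.051), and Lgsn had too few counts to be tested without wildtype replicate 1, 3, 4 or 5. Crybg3, the most abundant of this list by CPM, was at 0.22 ± 0.36 (SE, adjusted p = 0.819) and changed direction without Atf4 null replicate 1. None of the 6 small heat shock proteins tested besides the alpha-crystallins passed in the quasi-likelihood test. Hspb1 alone had an unadjusted p below 0.05 (log2 fold change -2.80 ± 0.80 SE, adjusted p = 0.0582), and it passed with DESeq2, with edgeR's exactTest and with no filter on low counts. Hspb6, the highest of them over the 9 libraries, had a log2 fold change of -0.06 ± 0.28 (SE, adjusted p = 0.942), with a direction that turned with library size alone.

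Of 34 transcription factors, cofactors and signalling genes known to act on crystallin promoters, 4 passed, 2 in each direction, and 2 to 5 as each library was left out, where 5.9% of all genes tested were called in either direction. Foxe3, a factor of the lens epithelium, was lower (log2 fold change -2.23 ± 0.38, adjusted p = 0.00347), and so was Tfap2a (-1.17 ± 0.26, adjusted p = 0.0162). Rara, a retinoic acid receptor, was higher (0.73 ± 0.18, adjusted p = 0.027), as was Tfap2b (2.04 ± 0.54, adjusted p = 0.0416). Both calls held without Atf4 null replicate 4 or wildtype replicate 5 and were lost without any 1 of the other 7 libraries, at adjusted p of 0.0607 to 0.1 for Rara and 0.0796 to 0.12 for Tfap2b. Tfap2b also lost its call in the robust fit (adjusted p = 0.0576), while Foxe3 and Tfap2a passed without each of the 9. In null replicates 1 to 4, Tfap2b was at 35.2, 25.6, 20.2 and 6.7 CPM and Rara at 84.8, 78.2, 65.5 and 50.5 CPM, and the 14 retina markers summed to 779, 451, 514 and 253 CPM. Null replicate 1 was thus highest and null replicate 4 lowest in all of these, and the part of retina transcripts in both genes was not tested. Maf, the factor to whose element the letters TGCTGA belong, was the most abundant of the list, at 1516 ± 346 CPM in wildtype (SD, n = 5) and 1524 ± 622 CPM in Atf4 null lenses (SD, n = 4), a log2 fold change of 0.01 ± 0.25 (SE, adjusted p = 0.993) whose sign turned in 4 alternatives.

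Of 9 RNA-binding regulators of lens transcripts, 1 passed, where 5.9% of all genes tested were called in either direction. Caprin2, a component of RNA granules, was lower, from 1417 ± 301 CPM (SD, n = 5) to 718 ± 257 CPM (SD, n = 4), with a log2 fold change of -0.98 ± 0.23 (SE, adjusted p = 0.0223). The call was lost without Atf4 null replicate 2 (adjusted p = 0.0844) or 3 (0.0795) and without any 1 of wildtype replicates 1 to 4 (0.0545 to 0.0582). Tdrd7, which had the highest mean over all 9 libraries but a lower wildtype mean than Caprin2 (1364 CPM), was at -0.47 ± 0.23 (SE, adjusted p = 0.294). Of 17 chaperones and co-chaperones that share clients with the alpha-crystallins, 3 passed, beside the same 5.9% of all genes. Hsph1 (0.79 ± 0.11, adjusted p = 0.00112) and Hsp90aa1 (0.49 ± 0.12, adjusted p = 0.0285) were higher, and the HSP40 co-chaperone Dnaja1 was lower (-0.55 ± 0.12, adjusted p = 0.0129). The call of Hsp90aa1 was lost without any 1 of null replicates 2 to 4 and wildtype replicates 2 to 4 (adjusted p 0.0587 to 0.0704). It was also lost with exactTest (0.0596) and with the replicate block (0.0569). Hsph1 and Dnaja1 passed without each of the 9 libraries, and none of the 17 passed with glmTreat. Hsp90ab1, the most abundant, was at -0.03 ± 0.13 (SE, adjusted p = 0.934), and its sign turned with library size alone and without Atf4 null replicate 1.

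Other fiber genes were set beside the crystallins. Of 10 fiber markers tested, 3 passed, all lower, and they were the beaded filament gene Bfsp1 (-1.42 ± 0.25, adjusted p = 0.00417), Birc7 (-1.79 ± 0.34, adjusted p = 0.00699) and the fiber DNase gene Dnase2b (-1.89 ± 0.27, adjusted p = 0.00115). The count was 5 without Atf4 null replicate 4 and 3 or 4 without each other library. Of all genes tested, 3.67% were called lower. The lens aquaporin gene Mip was at -0.02 ± 0.23 (SE, adjusted p = 0.977). Of 12 epithelial markers, 6 passed, all lower, and 5 to 7 as each library was left out. The 12 summed to 1368 to 1769 CPM in wildtype and 752 to 1100 CPM in null libraries.

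Retina markers were summed in the same libraries. The 14 retina markers summed to 779, 451, 514 and 253 CPM in Atf4 null replicates 1 to 4, and to 160 to 252 CPM in wildtype libraries. Null replicate 1 was thus highest in retina markers and lowest in all 8 crystallins, and null replicate 4 the reverse. Of 13 retina markers tested, 4 were called higher in the nulls, where 5.9% of all genes tested were called in either direction. The part of retina transcripts in the levels of the 8 genes was not tested.

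**Figure D5:**
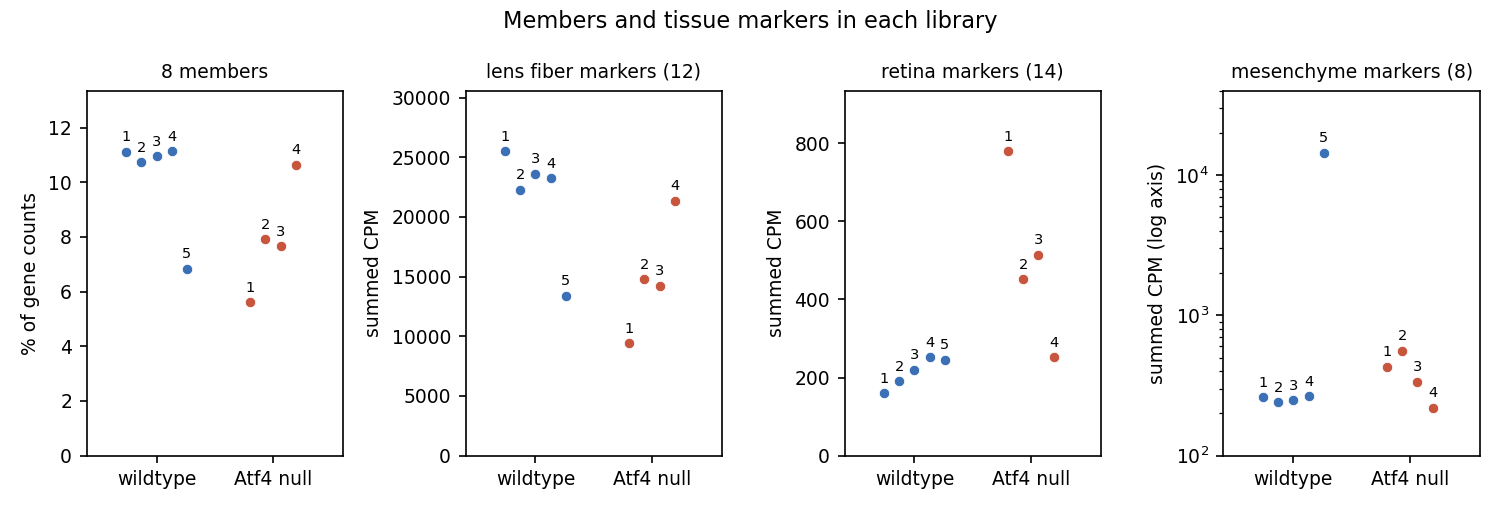
Share of gene counts taken by the 8 alpha- and beta-crystallins (left) and summed CPM of 12 lens fiber, 14 retina and 8 mesenchyme markers (log axis in the last panel, the other axes start at 0) in each library. Points carry replicate numbers. Among the nulls, replicate 1 has the least crystallin (5.62%) and the most retina signal (779 CPM), and wildtype replicate 5 has 14431 CPM of mesenchyme markers.

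The genes whose log2 CPM over the 9 libraries was most like the mean of the 8 crystallins were sought among 9354 genes outside the crystallins with a mean of at least 10 CPM. The 5 highest Pearson correlations were those of Fgfr2 (0.994), Tnrc6b (0.992), Hmgn3 (0.989), Sptan1 (0.987) and Caprin2 (0.985). Fgfr2 encodes a fibroblast growth factor receptor and Sptan1 a spectrin of the fiber membrane skeleton. Without wildtype replicate 5 the values were 0.994, 0.992, 0.991, 0.99 and 0.986. Fgfr2, the nearest, was at 80 to 166 CPM in null and at 129 to 211 CPM in wildtype libraries, with a log2 fold change of -0.56 ± 0.19 (SE, adjusted p = 0.114).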

How the data were processed

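RNA from 1 pair of lenses per embryo was sequenced after a Takara SMARTer stranded kit. The authors trimmed reads (Trim Galore), removed ribosomal reads and aligned the rest to GRCm39 (HISAT2), and deposited whole counts per Ensembl gene from HTSeq, with no normalization. The versions and the strand setting are not given in the sources used here. The 5 summary entries, 44.6% to 47.7% of the entries of a library, were left out. GENCODE vM39 gave symbols to 54749 of 55416 genes. For wildtype samples the titles and the count files name different wildtype libraries, so those replicate numbers are only names. No 2 libraries were repeats (lowest chi-square per degree of freedom 7.93 over 36 pairs).

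Counts were compared with edgeR 4.0.16 in R 4.3.3 (filterByExpr, TMM, estimateDisp, glmQLFit, glmQLFTest, no covariate), with Benjamini-Hochberg adjustment over 14903 genes. The steps were tested on simulated data. CPM are scaled by TMM factors. Ratios were log2 of CPM with a pseudocount of 0.5, compared in Python 3.11.15 with an exact permutation test, and plots were drawn with matplotlib 3.10.9. The 8 genes and all gene lists were chosen with earlier results of these data known. Named were the 8 members, the 5 genes most correlated with them, and up to 4 called genes per list by lowest p. Also named was the gene of highest mean CPM in each list, where abundance was not corrected for length. Hspb1 and the genes named from marker lists were chosen after their values were seen.

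Alternatives were DESeq2 1.42.0, exactTest, library size alone, TMM without crystallin genes, no filter, a minimum of 10 counts in all libraries, a robust fit, a replicate block, glmTreat at 0.5, a pseudocount of 5 CPM, and each library left out. The canonical transcript length was added after seeing the data.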

Additional observations from a re-analysis of the deposited data

Results flagged for a closer look

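Dixon's test for 1 sample far from the others was applied to the CPM of each of the 8 genes and to the 28 log2 ratios in each genotype. Chance flags about 1 in 20 groups. Of 16 groups of CPM values, 6 were past the critical value, and in each it was wildtype replicate 5, which was lower than the other 4. The gap to the nearest library, as a share of the range, was 0.912 for Cryaa, 0.856 for Cryba1, 0.84 for Cryba2, 0.887 for Cryba4, 0.821 for Crybb1 and 0.832 for Crybb3, where 5 libraries need 0.71. The same library held the mesenchyme and muscle transcripts given above. Of 56 groups of ratios, 2 were past it. These were Cryba4 over Cryaa, with wildtype replicate 5 lowest (0.719), and Cryba2 over Crybb1, with wildtype replicate 3 highest (0.836). In both pairs the wildtype ratios stayed apart from the null ratios.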

How the results depend on the processing

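The fitted change of each of the 8 genes kept its direction in all 18 alternatives. Of 144 such values, 117 stayed on the same side of the threshold, 16 lost the call and 11 gained it. The 3 genes that passed became 5 with DESeq2, 4 with no filter on low counts, 6 with a replicate block and 0 against a minimum change of 0.5 (glmTreat), where 3 kept an unadjusted p below 0.05, and 1 to 6 as each library was left out (6 without wildtype replicate 5, 5 without Atf4 null replicate 4, 1 or 2 otherwise). Of all genes tested, 880 passed, with 1397 in DESeq2, 235 in glmTreat and 527 to 1207 as each library was left out. Scaling by library size alone moved the median change (log2) of all genes from 0.00072 to 0.12 and the share of calls that were higher from 37.8% to 64.3%. The 21 pairs that passed became 19 with a pseudocount of 5 CPM and 16 to 21 as each library was left out. The causes were not tested. The replicate numbers did not pair the libraries: deviations of the 4 same-numbered pairs correlated between -0.143 and 0.0096, and no null library correlated best with its own number. The replicate block leaves wildtype replicate 5, which has no partner, without weight. With it, 852 genes passed. Paired in this way, 0 of 28 ratios could pass, since the smallest p of 4 pairs is 0.125, and 24 pairs reached it. Values that turned in sign, none of them called, were Crybg3 as libraries were left out (-0.273 to 0.467, below 0 without Atf4 null replicate 1), Hspb6 with library size alone (0.058) and as libraries were left out (-0.161 to 0.062), Hsp90ab1 likewise (0.092, and -0.106 to 0.032), and Maf with at least 10 counts per library (-0.002), with the replicate block (-0.22) and as libraries were left out (-0.298 to 0.197). The low counts of Crybb2 limit its ratios, and 5 against 4 libraries limit every test here.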
